A study of Rattus norvegicus with 20 samples.

Results

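The 10 genes described here are markers of the macrophages that live in skeletal muscle (Cd163, Mrc1, Cd68, Csf1r, Adgre1, Lyz2, Aif1, Cd14, Lyve1 and Cd209f), read from the rows of the gene count table that carry these symbols, out of 32495 named rows. They were measured by RNA-seq in the gastrocnemius, a calf muscle, of female Fischer 344 rats that all carried the Ward colorectal carcinoma. TUMOUR STD animals (5 libraries) ate a standard diet and received no chemotherapy. CHEMO STD animals (7 libraries) ate the same diet and received 2 cycles of chemotherapy, each of CPT-11 (irinotecan) followed a day later by 5-fluorouracil (5-FU, 50 mg/kg). CHEMO FO animals (8 libraries) received the same 2 cycles and were switched at the start of chemotherapy to a diet that differed in its eicosapentaenoic and docosahexaenoic acid (EPA and DHA, the fish oil fatty acids, 3.5% w/w). Muscle was taken 7 days after the last cycle, the tumour had grown for 2 weeks before the first, and the age is printed in the methods as 11 to 12 without a unit. A tumour-free group was not analysed here, so each group shares the tumour.

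Macrophages in muscle clear debris, present antigen and steer repair after injury. Resident cells with the scavenger receptors Cd163 and Mrc1 and the hyaluronan receptor Lyve1 usually lie along vessels and in connective tissue, while cells recently derived from blood monocytes carry more lysozyme and less of these receptors. Their survival depends on signalling through the receptor encoded by Csf1r, and the transcription factor PU.1 is needed for the lineage and for the expression of many of its genes.

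Levels are in CPM, counts scaled to a common library size with TMM factors. Libraries held between 3020821 and 10857477 counts on named genes. CHEMO STD 1 and 2 differed far less than other libraries of a group (chi-square per gene 2.23, against 13.7 to 255 in 58 other pairs), so they were counted as 1 sample, which leaves 6 samples in CHEMO STD and 19 in all. Both differed from CHEMO STD 3 to 6, with a chi-square per gene of 92 to 122. Pairs among CHEMO STD 3 to 6 gave 13.7 to 34.7. Muscle genes identified the tissue, with a summed level of at least 125000 CPM in every sample. By the summed level of a gene list, separate libraries stood apart in 3 cases. CHEMO FO 18 had the highest summed level of the 10 markers, 656 CPM, and the lowest of the skeletal muscle list, 125000 CPM. CHEMO STD 7 had the highest summed level of B cell genes, 64.3 CPM, where the other samples reached at most 3.81 CPM. TUMOUR STD 10 held 361 CPM of keratinocyte genes, and CHEMO FO 16 held 80.1 CPM of them. In bulk muscle, fewer macrophages and less of a transcript per macrophage cannot be told apart.

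The stretches upstream of 4 markers are shown because these markers carry the calls and the library differences described below, Cd163, Lyve1 and Mrc1 in CHEMO FO 18 and Lyz2 in CHEMO STD 7. They are the 250 bases before the RefSeq transcription start on the reference assembly GRCr8, 5′ to 3′ along the gene, and capitals mark the letters GAGGAA or their reverse TTCCTC, the core of the sites that PU.1 binds. Cd163 lies at chr4:158770524-158770773 (plus strand), Lyve1 at chr1:174410978-174411227 (minus strand), Mrc1 at chr17:82157475-82157724 (plus strand) and Lyz2 at chr7:54798012-54798261 (minus strand).
Cd163: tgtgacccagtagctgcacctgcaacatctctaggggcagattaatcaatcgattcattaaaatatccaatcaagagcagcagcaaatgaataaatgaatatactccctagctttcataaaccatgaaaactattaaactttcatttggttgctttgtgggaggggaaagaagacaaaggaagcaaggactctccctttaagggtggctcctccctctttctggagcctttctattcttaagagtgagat
Lyve1: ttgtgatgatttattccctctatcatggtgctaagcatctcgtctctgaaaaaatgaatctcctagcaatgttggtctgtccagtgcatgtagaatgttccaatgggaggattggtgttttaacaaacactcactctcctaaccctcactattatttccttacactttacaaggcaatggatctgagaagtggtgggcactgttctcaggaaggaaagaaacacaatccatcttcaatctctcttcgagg
Mrc1: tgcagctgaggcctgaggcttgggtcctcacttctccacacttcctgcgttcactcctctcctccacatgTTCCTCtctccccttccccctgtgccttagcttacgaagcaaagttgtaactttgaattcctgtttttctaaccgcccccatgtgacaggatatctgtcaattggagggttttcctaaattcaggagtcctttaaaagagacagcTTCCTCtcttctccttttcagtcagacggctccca
Lyz2: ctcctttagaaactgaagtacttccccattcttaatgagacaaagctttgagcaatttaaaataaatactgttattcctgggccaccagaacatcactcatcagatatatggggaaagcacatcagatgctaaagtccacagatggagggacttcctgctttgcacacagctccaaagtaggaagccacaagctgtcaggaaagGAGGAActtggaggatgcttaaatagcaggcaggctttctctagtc
A start was listed for 9 of the 10 markers (not for Aif1), and 6 of these 9 windows held GAGGAA on either strand, against 23.3% of 33469 rat windows of the same length. Mrc1 carried 2 copies, with first bases 180 and 35 bases before the start, and Lyz2 carried 1, 46 bases before it. Cd68, Csf1r, Adgre1 and Cd14 also carried it. The windows of Cd163, Lyve1 and Cd209f did not hold these letters. The MAF half-site TGCTGA was found in 1 window, that of Adgre1 (15.1% of all windows), and the AP-1 site TGACTCA in 1, that of Cd68 (4.05% of all windows). Both strands were searched, no motif contains another, and a match describes letters only. The authors aligned to the older assembly Rnor 6, so these positions are those of the reference and not of the count table.

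Cd163 takes up haemoglobin bound to haptoglobin and is the classic marker of resident and repair-type macrophages. In TUMOUR STD the samples 8 to 12 read 28.7, 26.8, 35.8, 23.2 and 27.2 CPM. CHEMO STD samples ranged from 28 to 65 CPM with a median of 34, and CHEMO FO samples from 20.8 to 275 CPM with a median of 36.8. The groups overlapped, 2 of the 6 CHEMO STD samples (1-2 and 4) lay above every TUMOUR STD sample, and CHEMO FO 18 alone stood at 275 CPM with the next CHEMO FO sample at 63 CPM. Means were 28.4 ± 4.64 (SD, n = 5), 41.3 ± 15 (SD, n = 6) and 66 ± 85.3 (SD, n = 8) CPM.

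In the fit with edgeR's quasi-likelihood test, Cd163 was 2.34-fold higher in CHEMO FO than in TUMOUR STD (log2 fold change 1.22, SE 0.49, unadjusted p = 0.0203, Benjamini-Hochberg adjusted p = 0.515). It met the study's threshold for a call, an unadjusted p below 0.05 with at least a 1.5-fold change. Without CHEMO FO 18 the log2 fold change was 0.35 and the gene was not called. Against CHEMO STD, CHEMO FO read 0.67 (SE 0.451) on the log2 scale with all samples and -0.22 without that library. The difference between CHEMO STD and TUMOUR STD was 0.55 (SE 0.507). With CHEMO FO 18 left out it was 0.57 (SE 0.245), just short of 1.5-fold, with an unadjusted p = 0.0306 in the edgeR fit.

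**Figure D1:**
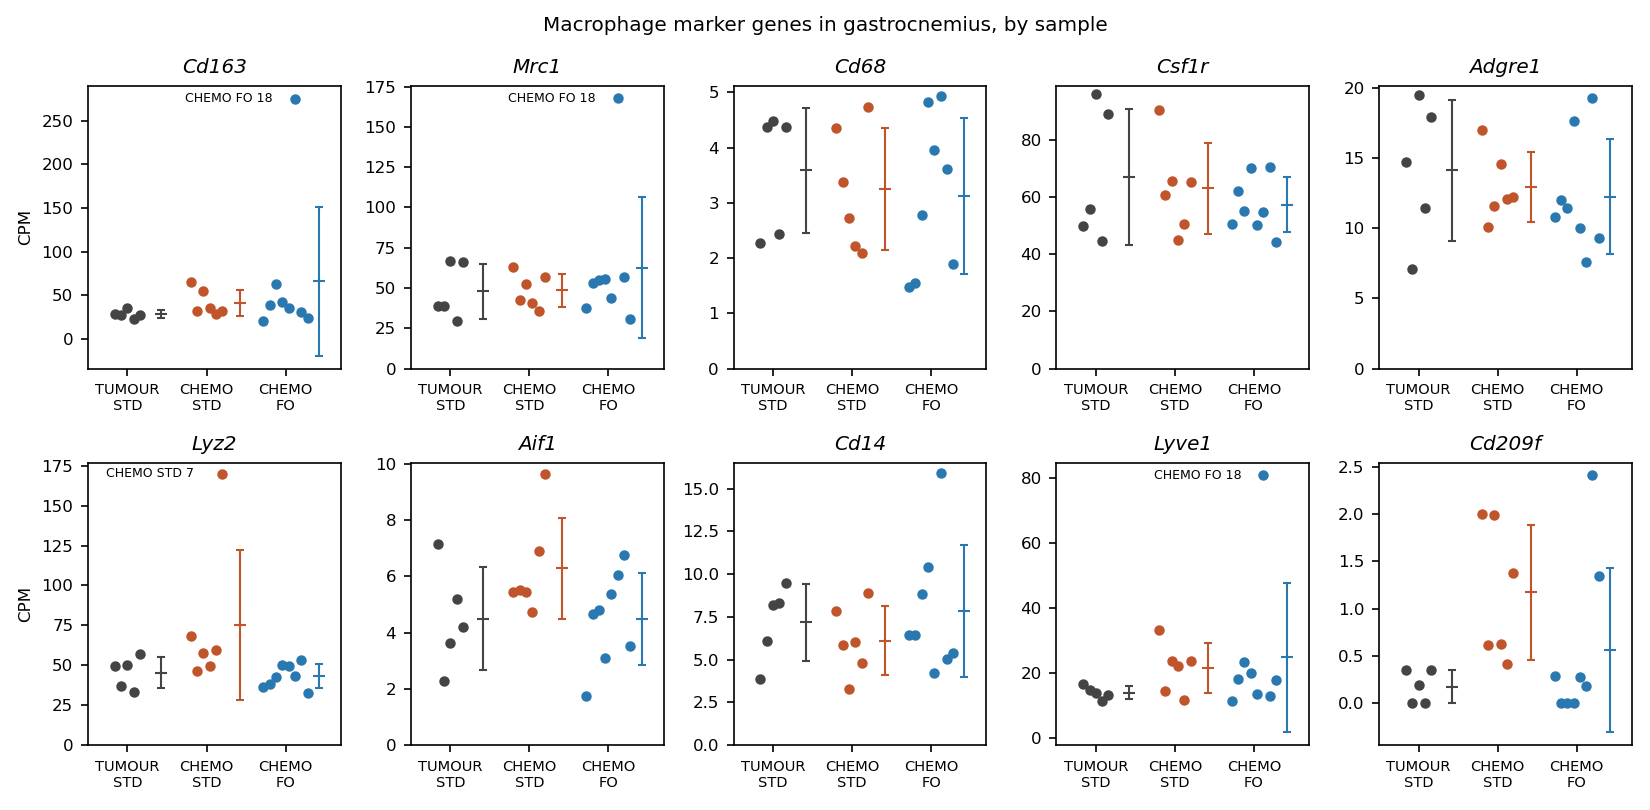
Level of each marker in CPM (linear axis) in the 5 TUMOUR STD, 6 CHEMO STD and 8 CHEMO FO samples, each point a sample in order of its number and the bars the mean and SD. CHEMO FO 18 stands alone in Cd163 (275 CPM), Mrc1 (168 CPM) and Lyve1 (80.8 CPM), and CHEMO STD 7 stands alone in Lyz2 (170 CPM).

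Lyve1, a hyaluronan receptor of perivascular macrophages that lymphatic endothelium also makes, followed Cd163. The TUMOUR STD samples read 16.6, 14.8, 14.1, 11.4 and 13.3 CPM. CHEMO STD ran from 11.9 to 33.3 CPM, with 4 of 6 samples above every TUMOUR STD sample. CHEMO FO ran from 11.4 to 80.8 CPM with a median of 18.2, and CHEMO FO 18 was again far above the next sample, at 23.5 CPM. The call of Lyve1 in CHEMO FO against TUMOUR STD (1.8-fold higher, log2 fold change 0.85, SE 0.379, edgeR unadjusted p = 0.0357, adjusted p = 0.534) was lost without CHEMO FO 18, where the log2 fold change was 0.27. It was also lost without any of TUMOUR STD 9, 10, 11 or 12 (0.78 to 0.87) and in a fit of only these groups (0.85). In CHEMO STD against TUMOUR STD Lyve1 read 0.64 (SE 0.398) with all samples, which was no call. Without CHEMO FO 18 it read 0.66 (SE 0.219) and was called, at an unadjusted p = 0.00658 and an adjusted p = 0.55 in the same edgeR test. That library belongs to neither group of this comparison and enters through the shared estimate of the spread.

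Lymphatic genes were set beside Lyve1. Of the 8 on the list, 4 had a positive and 4 a negative log2 difference between CHEMO STD and TUMOUR STD, with a median log2 difference of 0.00. Prox1, a transcription factor found in lymphatic endothelium, was 0.544-fold of TUMOUR STD in CHEMO STD and was called lower (log2 fold change -0.88, SE 0.235, edgeR unadjusted p = 0.00108, adjusted p = 0.719). In CHEMO FO against TUMOUR STD, where Lyve1 was called higher, 7 of the 8 were lower with a median of -0.36. Prox1 was called lower there (-0.65, SE 0.219) and Pdpn higher (1.09, SE 0.478). Neither was called without CHEMO FO 18, where Pdpn read 0.14 (SE 0.202). Prox1 then read -0.53 (SE 0.199, edgeR unadjusted p = 0.0138, adjusted p = 0.49), short of 1.5-fold. Pdpn, a podoplanin gene of lymphatic and stromal cells, stood at 67.6 CPM in CHEMO FO 18 against 6.61 to 11 CPM in the other CHEMO FO samples. The shares of Lyve1 and of Prox1 that come from lymphatic vessels were not tested.

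Mrc1 encodes the mannose receptor CD206, another marker of resident macrophages. Its TUMOUR STD samples read 38.6, 38.6, 66.8, 29.7 and 65.9 CPM, with samples 10 and 12 the high ones. CHEMO STD lay between 36 and 62.8 CPM, inside the TUMOUR STD range. CHEMO FO lay between 30.7 and 168 CPM with a median of 54.2, and without sample 18 between 30.7 and 56.6 CPM. The log2 difference between CHEMO FO and TUMOUR STD was 0.38 (SE 0.314) with all samples and -0.02 without CHEMO FO 18. Mrc1 was called in no comparison.

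Cd209f, a C-type lectin related to DC-SIGN and carried by resident macrophages of several rodent tissues, was the least abundant marker, with 103 counts over all 20 libraries and at most 21 in any. It did not pass the low-count filter, so 9 of the 10 markers were tested across all genes. In TUMOUR STD it read 0.349, 0, 0.191, 0 and 0.351 CPM, 6 counts in all. In CHEMO STD every sample was above these in CPM, from 0.418 to 2 CPM with 72 counts, but samples 3, 5 and 6 held 2 counts each, as TUMOUR STD 8, 10 and 12 did, and differ from them only through library size. In CHEMO FO it ranged from 0 to 2.41 CPM with 25 counts, and samples 19 and 20 (2.41 and 1.35 CPM) lay apart from the other 6, which read 0 to 0.293 CPM. A count of 0 allowed levels up to 0.298 and 0.487 CPM in the 2 TUMOUR STD libraries concerned, and up to 0.664, 0.759 and 1.04 CPM in CHEMO FO 14, 15 and 16, counting error only.

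Cd209f was the only marker of the 10 whose CHEMO STD and TUMOUR STD samples did not overlap, where 0.382% of 19364 genes with at least 1 count behaved so. At these counts the separation is narrow (0.351 against 0.418 CPM), and the limit of 0.487 CPM for TUMOUR STD 11 lies above the lowest CHEMO STD sample. Between CHEMO FO and CHEMO STD 0 of the 10 markers were free of overlap (background 0.0723%), and between CHEMO FO and TUMOUR STD also 0 (background 0.248%). The mean log2 CPM of Cd209f in CHEMO STD exceeded that of TUMOUR STD by 1.56 (two-sided exact permutation test, p = 0.00433, smallest possible 0.00216). The mean difference between CHEMO FO and CHEMO STD was -1.12 (exact permutation p = 0.0686). That between CHEMO FO and TUMOUR STD was 0.44 (exact permutation p = 0.486). CHEMO FO 19 and 20 held the highest levels of their group, so leaving out either could only widen the difference from CHEMO STD. It was then -1.43 and -1.32, and these leave-outs add no support to it. With each sample left out in turn the difference ranged from -1.43 to -0.96. Reads of related lectin genes could be assigned to Cd209f or from it, since how the authors treated reads with several matches is not stated. The related rows Cd209, Cd209a, Cd209c, Cd209e and Clec4m held 5, 0, 3, 5 and 51 counts.

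Lyz2, the lysozyme of monocytes, macrophages and granulocytes, moved with a different library. TUMOUR STD samples read 49.3, 36.8, 50.4, 33.5 and 57.2 CPM. CHEMO STD samples ran from 46.1 to 170 CPM with 4 of 6 above every TUMOUR STD sample. CHEMO FO samples ran from 32.6 to 53.3 CPM with a median of 43. CHEMO STD 7 held the 170 CPM, and the next sample of its group read 68.2 CPM. Without it the CHEMO STD mean was 56.3 ± 8.73 CPM (SD, n = 5), still above the CHEMO FO mean of 43.3 ± 7.27 CPM (SD, n = 8) in level.

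In CHEMO STD, Lyz2 was called higher relative to TUMOUR STD (1.65-fold, log2 fold change 0.72, SE 0.262, edgeR unadjusted p = 0.0111, adjusted p = 0.719). It was called lower in CHEMO FO than in CHEMO STD (0.572-fold, log2 fold change -0.81, SE 0.231, edgeR unadjusted p = 0.00207, adjusted p = 0.974). Neither call held without CHEMO STD 7, where the log2 fold changes were 0.31 (unadjusted p = 0.0729) and -0.39 (unadjusted p = 0.0159) in the same edgeR test. CHEMO FO and TUMOUR STD differed by -0.08 (SE 0.246). Another lysozyme gene is annotated in the rat, so reads could be split between the copies and the Lyz2 values are uncertain to that extent. The lysozyme-like rows Lyzl1, Lyzl4 and Lyzl6 held 0 counts.

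In CHEMO STD 7 the genes of other leukocytes were high beside Lyz2. All 6 B cell genes had their highest level of the 19 samples there, among them Cd79b at 21.5 CPM and Ms4a1 at 9.27 CPM, which were both listed at 0 in the other CHEMO STD samples. The 8 T cell genes summed to 32.1 CPM against 0.922 to 3.97 CPM in the other 18 samples, and the neutrophil and monocyte list to 31.7 CPM against 0.633 to 9.89 CPM. The lymph node chemokine Ccl21 read 62.7 CPM against at most 29.4 CPM in its group. Marco, a scavenger receptor of splenic and lymph node macrophages, read 10.8 CPM against at most 0.307 CPM, and Siglec1, a macrophage sialic acid receptor, read 15.8 CPM against at most 6.95 CPM. The other markers differed in where this sample stood among the 19. Aif1 was highest there, Cd68 was 3rd, Cd14, Lyve1 and Cd209f were 4th (8.87, 23.9 and 1.38 CPM), Mrc1 was 6th, Csf1r 7th, Adgre1 8th and Cd163 10th (32.3 CPM). The part these cells have in the Lyz2 result was not tested.

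**Figure D2:**
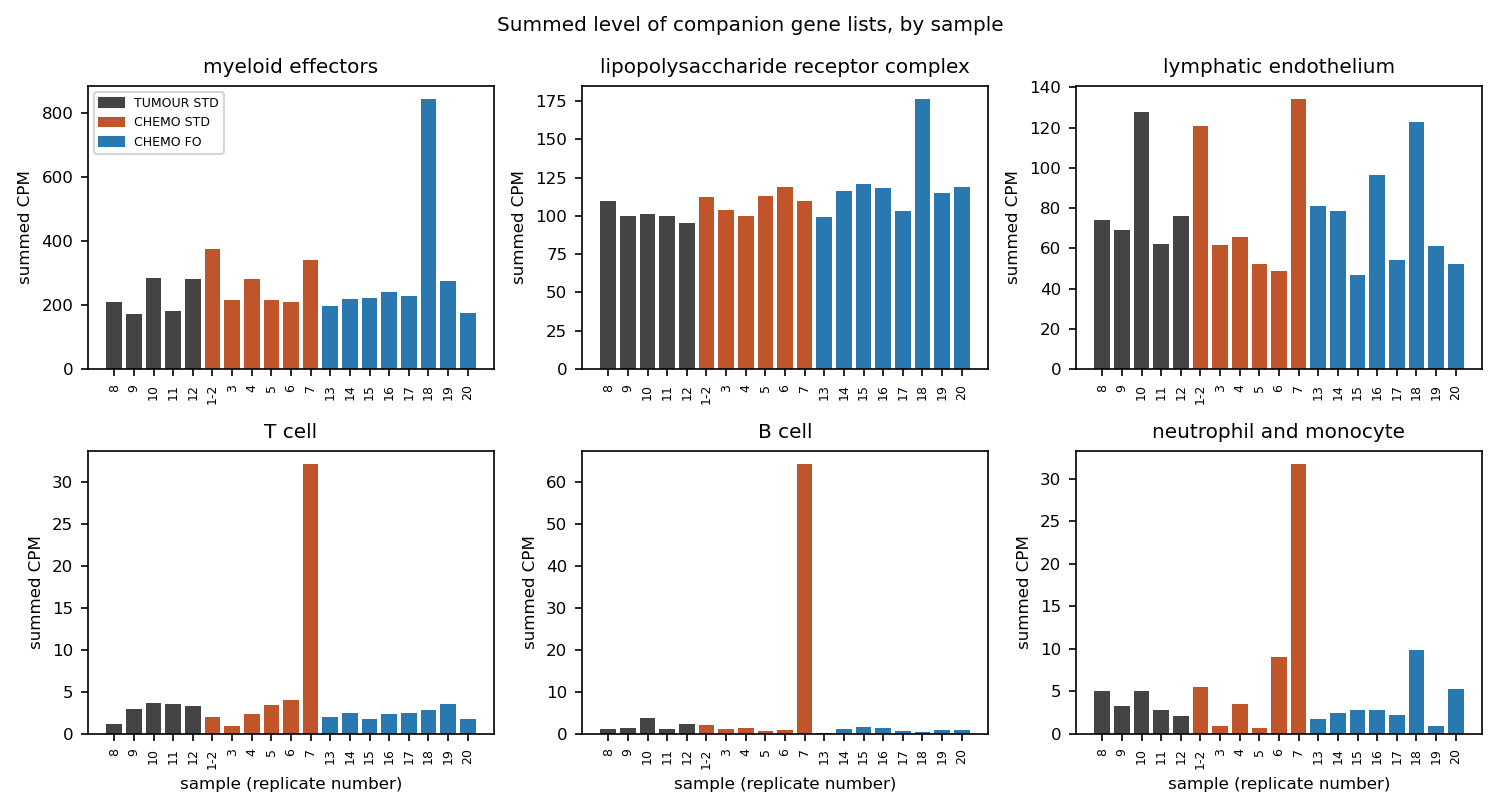
Summed CPM of 6 gene lists in each sample, coloured by group, with the replicate number on the horizontal axis. CHEMO STD 7 stands out in the T cell (32.1 CPM), B cell (64.3 CPM) and neutrophil and monocyte (31.7 CPM) lists, and CHEMO FO 18 in the myeloid effector list (842 CPM).

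Aif1 (Iba1), an actin-bundling protein of macrophages and microglia, had CHEMO STD samples between 4.75 and 9.66 CPM, the highest again CHEMO STD 7. TUMOUR STD samples ranged from 2.29 to 7.16 CPM and CHEMO FO samples from 1.76 to 6.75 CPM. The log2 differences were 0.50 (SE 0.295) for CHEMO STD against TUMOUR STD and -0.46 (SE 0.265) for CHEMO FO against CHEMO STD, and neither was called. The first of these was called only when TUMOUR STD 8, the highest of its group, was left out (log2 fold change 0.73).

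Csf1r, the receptor for the growth factor that keeps macrophages alive, was called in no comparison. TUMOUR STD samples read 49.8, 55.8, 96.4, 44.8 and 89.4 CPM, CHEMO STD samples 45.2 to 90.8 CPM and CHEMO FO samples 44.5 to 70.8 CPM. The ranges of the 3 groups lay over each other, and the log2 differences were -0.10 (SE 0.204), -0.15 (SE 0.183) and -0.25 (SE 0.192) in the order CHEMO STD against TUMOUR STD, CHEMO FO against CHEMO STD, and CHEMO FO against TUMOUR STD. Adgre1, the adhesion receptor F4/80, gave -0.11 (SE 0.251), -0.12 (SE 0.229) and -0.24 (SE 0.238) in the same order. Cd68, a lysosomal glycoprotein, gave -0.13 (SE 0.332), -0.08 (SE 0.307) and -0.21 (SE 0.315) at levels of 1.47 to 4.94 CPM. Cd14, the co-receptor for lipopolysaccharide, gave -0.23 (SE 0.323), 0.36 (SE 0.295) and 0.13 (SE 0.302). None of these 4 markers was called in any comparison with all samples.

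Counted over the markers, 1 of 9 tested was called in CHEMO STD against TUMOUR STD (Lyz2, higher), where 2.38% of the 11716 tested genes were called. In CHEMO FO against CHEMO STD 1 of 9 was called (Lyz2, lower; background 1.66%), and in CHEMO FO against TUMOUR STD 2 of 9 (Cd163 and Lyve1, higher; background 3.6%). The median log2 difference of the 9 markers was 0.01, -0.08 and 0.05, beside medians over all tested genes that lay within 0.01 of 0. Without CHEMO FO 18 the marker medians were 0.03, -0.22 and -0.07, and without CHEMO STD 7 they were -0.025, 0.04 and 0.05. In CHEMO FO against CHEMO STD, 8 of 9 markers were lower without CHEMO FO 18, where 48.1% of all tested genes were higher. Without CHEMO STD 7, 4 of 9 were lower there. In edgeR 0 genes passed an adjusted p of 0.05 in each comparison, with 762, 528 and 1059 genes at an unadjusted p below 0.05. DESeq2 gave 0, 0 and 12 genes past the adjusted threshold, none of them a marker. The comparisons share their groups and are not independent of each other.

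**Figure D3:**
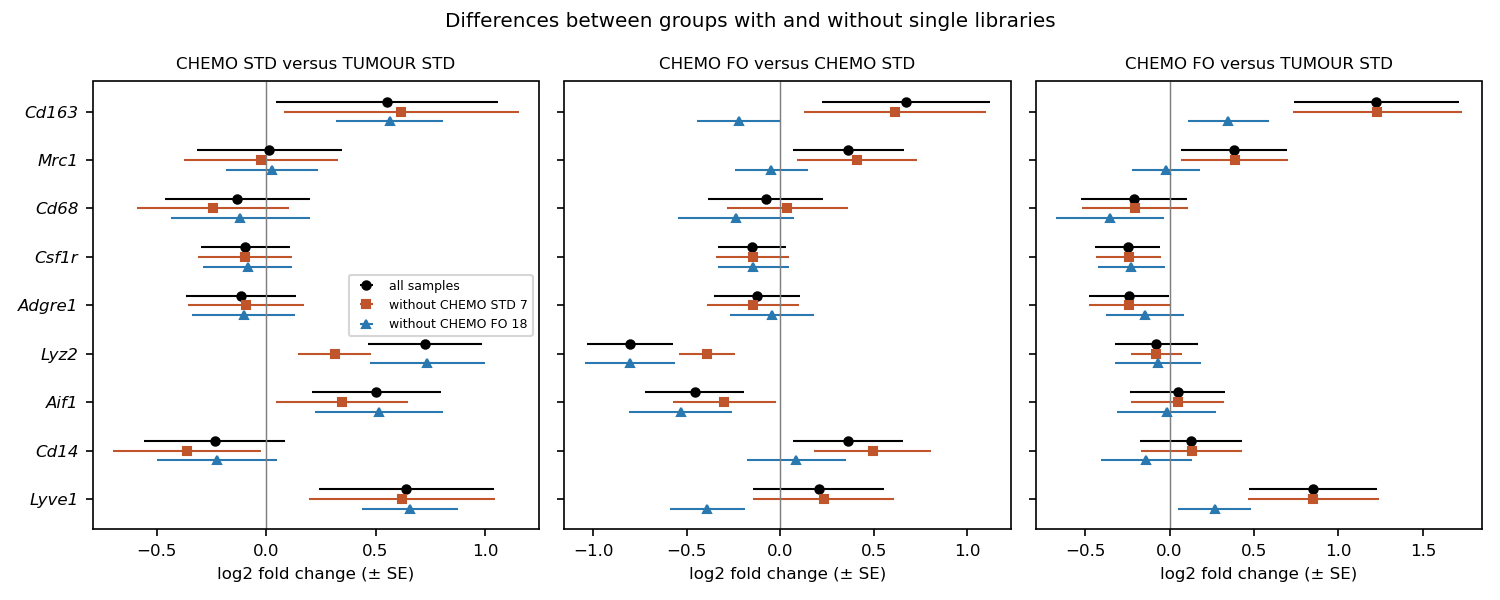
Log2 fold change with its standard error for the 9 tested markers in 3 comparisons, with all samples (circles), without CHEMO STD 7 (squares) and without CHEMO FO 18 (triangles). Cd163 in CHEMO FO against TUMOUR STD falls from 1.22 to 0.35 without CHEMO FO 18, and Lyz2 in CHEMO FO against CHEMO STD goes from -0.81 to -0.39 without CHEMO STD 7.

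Read by library, CHEMO FO 18 split the markers. Cd163 was 7.87-fold, Lyve1 4.47-fold, Mrc1 3.16-fold and Cd14 2.48-fold the median of the other 7 CHEMO FO samples. Cd68 was 1.78-fold and, at 4.94 CPM, also highest of the 19 samples. Csf1r (0.988-fold) and Lyz2 (1.01-fold) were close to that median, Adgre1 was 0.667-fold (18th of 19 samples), and Cd209f had 2 counts. Other phagocyte genes were far higher there. Gpnmb, a lysosomal glycoprotein of lipid-laden macrophages, read 227 CPM against at most 13.5 CPM in the other CHEMO FO samples. Lgmn, the lysosomal protease legumain, read 248 CPM against at most 46.7 CPM. Msr1, scavenger receptor A, read 22.1 CPM against at most 7.95 CPM, and Hmox1, the haem-degrading enzyme, 22.1 CPM against at most 5.87 CPM. T cell genes (2.84 CPM) and B cell genes (0.366 CPM) were not high in this library, the neutrophil and monocyte list was 2nd highest of the 19 samples (9.89 CPM), the fibroblast list was the lowest (1710 CPM), and muscle genes were its lowest of all samples, at 125000 CPM against 173000 to 241000 CPM. Their part in the marker levels was not tested.

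**Figure D4:**
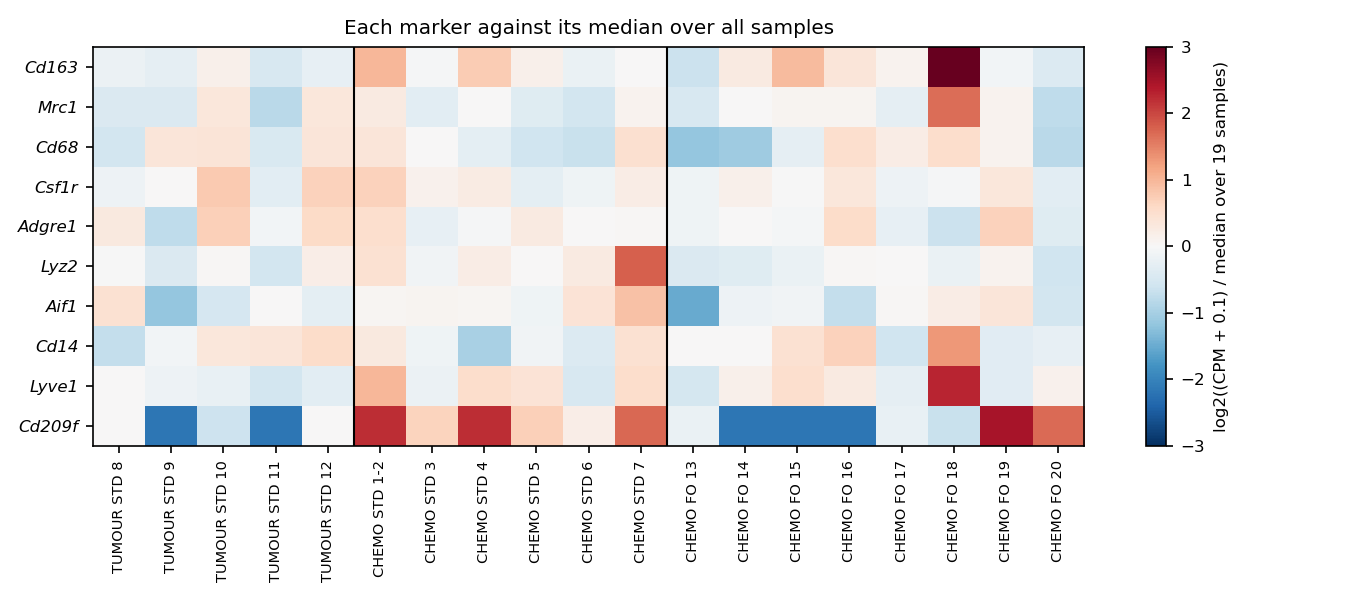
Log2 of each marker's CPM (plus 0.1) over its median across 19 samples, samples in columns by group and markers in rows. CHEMO FO 18 is red for Cd163, Mrc1, Cd14 and Lyve1 and near white for Csf1r and Lyz2. CHEMO STD 7 is red for Lyz2 (1.783) and for the low-count Cd209f (1.72).

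The spread within a group differed between markers and groups. The coefficient of variation of Cd163 was 16.4% in TUMOUR STD, 36.4% in CHEMO STD and 129% in CHEMO FO, where 99.6% of tested genes had a lower one. Lyve1 reached 92.1% and Mrc1 69.8% in CHEMO FO, and Lyz2 62.7% in CHEMO STD, against medians over all tested genes of 25.2% in CHEMO FO and 20.4% in CHEMO STD. These high values are those of the groups that hold the 2 libraries. Without CHEMO FO 18 the CHEMO FO mean of Cd163 was 36.2 ± 14 CPM (SD, n = 7), that of Lyve1 16.9 ± 4.31 CPM and that of Mrc1 47.5 ± 10.2 CPM. Csf1r was at 16.7% in CHEMO FO, 25.1% in CHEMO STD and 35.5% in TUMOUR STD, and Adgre1 at 35.7% in TUMOUR STD, where Lyve1 was at 13.7%.

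Markers were then compared across the 19 samples after the mean of each group was removed. Of the 45 pairs, 39 had a Pearson r above 0, the median was 0.28 and the range -0.33 to 0.92. Cd163 and Lyve1 were the closest (r = 0.924, Spearman's rho = 0.889, permutation p adjusted over the pairs 0.00135 and 0.00045, from 100000 permutations within groups). Leaving out the 2 samples farthest from the median of Cd163 (CHEMO FO 18 and 13) gave r = 0.746. Cd163 and Mrc1 had r = 0.865 and rho = 0.700 (adjusted permutation p 0.00135 and 0.0057), and r = 0.664 without those 2 samples.

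The pairs of Csf1r with Mrc1 and with Cd163 depended on CHEMO FO 18. Mrc1 and Csf1r had r = 0.581 and rho = 0.788 (adjusted permutation p 0.0423 and 0.0057), and without CHEMO FO 18, where Mrc1 was high and Csf1r was not, r was 0.924. Mrc1 and Cd68 had r = 0.661 and rho = 0.696 (adjusted permutation p 0.0271 and 0.0214), and 0.610 without the 2 farthest samples. These 4 pairs were below 0.05 by both measures, and 9 pairs were by r. Cd163 and Csf1r had r = 0.245 with all samples and 0.53 without CHEMO FO 18, and the difference between these correlations and those of Mrc1 with Csf1r was not tested. Other pairs with Csf1r changed less without that library. Csf1r and Adgre1 had r = 0.633 with it and 0.666 without it, and Csf1r and Cd68 had 0.585 and 0.641. Lyz2 had r = 0.075 and rho = 0.232 with Cd163, and r = 0.388 and rho = 0.575 with Mrc1 (adjusted permutation p 0.11 and 0.0675 for the latter pair). All values of a sample share its library and its scaling.

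**Figure D5:**
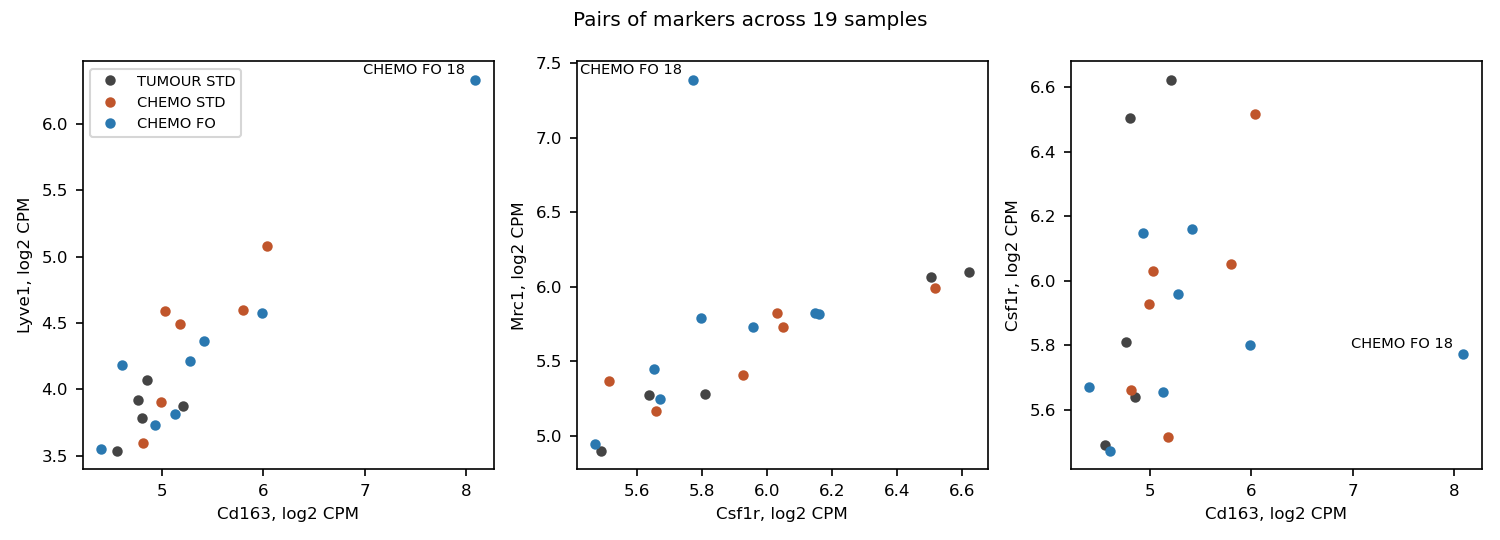
Log2 CPM of 3 pairs of markers in 19 samples, coloured by group. Lyve1 rises with Cd163 (r = 0.924 about group means), Mrc1 rises with Csf1r apart from CHEMO FO 18 (r = 0.581 with it and 0.924 without it), and Csf1r does not follow Cd163 in CHEMO FO 18 (r = 0.245).

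Among the 11715 other tested genes, those most like Cd163 over the 19 samples were Lyve1 (r = 0.924), Steap4 (0.923), Ctsl (0.912), Lvrn (0.904) and Cp (0.903), given as a description. Steap4 encodes a metalloreductase, Ctsl cathepsin L, Lvrn an aminopeptidase and Cp the copper ferroxidase ceruloplasmin. Their r without CHEMO FO 18 was 0.765, 0.770, 0.643, 0.804 and 0.643. Ctsl read 1040 CPM in CHEMO FO 18 and 86.4 to 201 CPM in the other samples. Mrc1 ranked 28th.

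Around the markers, the myeloid effector list held complement, Fc receptor, protease and integrin genes that macrophages use. Of its 17 tested genes 15 had a higher mean in CHEMO STD (median log2 difference from TUMOUR STD 0.38), where 49.7% of all tested genes were higher, and 1 was called. This was Mnda, a nuclear antigen of myeloid cells (2.49-fold higher, log2 fold change 1.31, SE 0.363, edgeR unadjusted p = 0.00147, adjusted p = 0.719). The complement genes C1qa, C1qb and C1qc read 0.38, 0.51 and 0.45 on the log2 scale without a call, and the protease Ctss 0.57. Without the 3 libraries named above 14 of the 17 were higher, with a median of 0.41, and 3 were called, where 51.5% of 11614 tested genes were higher and 170 were called. The 3 were Mnda (1.29), C1qb (0.67) and the inhibitory Fc receptor Fcgr2b (0.96).

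In CHEMO FO against CHEMO STD 14 of the 17 effector genes were lower (median -0.25, where 48.7% of all tested genes were higher), and 1 was called, Gpnmb, which was higher by 2.12 (SE 0.742) on the log2 scale. Without CHEMO STD 7 only 10 of the 17 were lower, with a median of -0.14. Gpnmb was no longer called without CHEMO FO 18. Then 16 of 17 were lower with a median of -0.40, and Itgam, the integrin CD11b (-0.65, SE 0.205), and Fcgr2b (-0.98, SE 0.344) were called lower, at an adjusted p = 0.889 each in edgeR. There 48.1% of 11583 tested genes were higher and 170 were called. Without the 3 libraries named above 16 of 17 were again lower, with a median of -0.29. Itgam (-0.704) and Fcgr2b (-0.705) were called lower, where 48.8% of 11614 tested genes were higher and 144 were called. CHEMO STD is shared by both comparisons, so a high or low CHEMO STD sample moves them in opposite directions. In CHEMO FO against TUMOUR STD 12 of 17 were higher (50.4% of all tested genes) with a median of 0.21. Mnda (1.10, SE 0.348) and Gpnmb (1.63, SE 0.761) were called higher, and of these Mnda (0.79) was still called without CHEMO FO 18. In that fit 8 of 17 were higher, with a median of -0.04.

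The other lists gave fewer calls. In the CSF1 axis of 11 tested genes (ligands, receptors and transcription factors), Irf8, a transcription factor of the monocyte lineage, was called lower in CHEMO FO than in CHEMO STD (log2 fold change -0.83, SE 0.393) and Cebpb higher in CHEMO FO than in TUMOUR STD (0.74, SE 0.319). Cebpb had its highest level in CHEMO FO 18 (59.3 CPM against at most 46.1 CPM in its group) and was not called without it (0.53, SE 0.289). Irf8 had its highest level in CHEMO STD 7 (16.2 CPM against at most 3.76 CPM in its group) and was not called without it. Of 7 tested scavenger receptors 1 was called, Siglec1, lower in CHEMO FO than in CHEMO STD (-0.79, SE 0.351), and this too was not called without CHEMO STD 7. Of the 8 genes of the lipopolysaccharide receptor complex 0 were called in any of the 3 comparisons by edgeR, with 1 below an unadjusted p of 0.05 (Irak1, a kinase of the pathway, 0.32 in CHEMO FO against TUMOUR STD). Of 5 tested macrophage activation genes 0 were called and 0 were below that p. The mast cell list had 1 call in each of the comparisons with CHEMO STD, both times Cma1, a chymase. Its log2 fold change was 0.82 (SE 0.327) between CHEMO STD and TUMOUR STD and -0.91 (SE 0.296) between CHEMO FO and CHEMO STD. Cma1 too was highest in CHEMO STD 7, and without that sample it was called only in the second of these, at -0.76 (SE 0.303).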

How the data were processed

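Gastrocnemius RNA was sequenced in 20 libraries of 3 groups. The authors trimmed the reads with Trim Galore 0.4.1, aligned them with TopHat2 2.0.10 and Bowtie2 to Rnor 6 and deposited raw counts per gene. How strand and multiply mapped reads were handled in counting is not stated there. Of 32883 rows, 388 carry no gene name (0.102% to 0.272% of counts) and were left out. In 1 gene, no marker, 2 counts were stored rounded.

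Counts of CHEMO STD 1 and 2 were summed. With edgeR 4.0.16 in R 4.3.3, genes were kept by the default filter (minimum count 10, minimum total 15), scaled by TMM and fitted over all 3 groups by quasi-likelihood. A call needs an unadjusted p below 0.05 and 1.5-fold, and p-values were adjusted over all 11716 genes. Cd209f, below the filter, was compared by exact permutation of log2 CPM (prior count 2). Levels are CPM, with libraries 1 and 2 averaged. Labels do not say that samples are separate animals, so p-values measure the spread between samples. Named genes are the markers, genes of set lists that were called or among the 3 most abundant, and the 5 most like Cd163; other list genes named for CHEMO STD 7, CHEMO FO 18 or the effectors were chosen after their values were seen. Members and lists were chosen with earlier results of these data known. Alternatives were DESeq2 1.42.0, other scaling and filters, a stricter filter (mean count 10), fits of 2 groups, and each sample left out. The model was tested on simulated data. Sequences are from RefSeq, GRCr8. Listed genes without a row of that name were not analysed here, and single results of a few listed genes are not reported here.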

Additional observations from a re-analysis of the deposited data

Results flagged for a closer look

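Within each group the highest or lowest sample was set against the others by Dixon's ratio, for 10 markers in 3 groups. Of these 30 groups 4 were past the 95% limit, where chance gives about 1 in 20 if values are independent and normally distributed. That condition was not tested for these CPM, so the rate is only a rough guide. In CHEMO FO 18, Cd163 stood at 275 CPM with the nearest sample of its group at 63 CPM, Mrc1 at 168 CPM with the nearest at 56.6 CPM, and Lyve1 at 80.8 CPM with the nearest at 23.5 CPM. In CHEMO STD 7, Lyz2 stood at 170 CPM with the nearest at 68.2 CPM. The 3 values of CHEMO FO 18 come from the same library and are not independent.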

How the results depend on the processing

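No paired analysis was possible because the replicate numbers run through the series and no number occurs in more than 1 group. Direction and call of all 27 marker fold changes were kept with RLE factors, library totals, no filter and the stricter filter. Keeping CHEMO STD 1 and 2 separate turned Csf1r in CHEMO STD against TUMOUR STD to 0.0019. DESeq2 turned Cd163 in CHEMO FO against CHEMO STD to -0.21 and lost its call against TUMOUR STD (0.34), because it replaced the CHEMO FO 18 count of 2999 by 377.

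Genes called with no filter were 971, 722 and 1116 in the order CHEMO STD against TUMOUR STD, CHEMO FO against CHEMO STD and CHEMO FO against TUMOUR STD, from more genes tested, and 314 with DESeq2 in the second. Markers called in the first were 2 with no filter or DESeq2 (Cd209f added) and 2 in a fit of only its groups (Lyve1 added). In the last they were 1 with DESeq2 (Lyve1) and 1 in a fit of only its groups (Cd163).

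With each sample left out in turn, genes called ranged from 161 to 603, 153 to 266 and 273 to 584, with the lowest without TUMOUR STD 10, CHEMO STD 7 and CHEMO FO 18, and the count of the first was 530 without TUMOUR STD 8 and 450 without TUMOUR STD 11. Markers called ranged from 0 to 2, 0 to 1 and 0 to 2. Lyve1 in CHEMO FO against TUMOUR STD was not called without any of TUMOUR STD 9, 10, 11, 12 or CHEMO FO 18, and ranged from 0.27 to 0.96. Cd209f in CHEMO FO against CHEMO STD ranged from -1.43 to -0.96. Values that changed sign ranged, in the first comparison, from -0.12 to 0.18 for Mrc1, -0.22 to 0.08 for Csf1r and -0.29 to 0.05 for Adgre1. In the second they ranged from -0.22 to 0.86 for Cd163, -0.05 to 0.47 for Mrc1, -0.24 to 0.06 for Cd68 and -0.39 to 0.39 for Lyve1. In the last they ranged from -0.02 to 0.54 for Mrc1, -0.17 to 0.03 for Lyz2, -0.13 to 0.28 for Aif1 and -0.14 to 0.25 for Cd14.

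Leaving out CHEMO FO 18, CHEMO STD 7 and TUMOUR STD 10 together, chosen after seeing the data, gave 170 and 214 genes called in the first and last comparisons. Markers called were then 2 (Cd163 at 0.74 and Lyve1 at 0.64), 0 and 0. CHEMO STD 1-2, the highest of its group for both (65 and 33.3 CPM), was kept in this fit. In the fit without that sample alone, Cd163 read 0.37 and Lyve1 0.47 in the first comparison. With the 3 libraries left out, Csf1r (0.08) and Adgre1 (0.08) turned in the first, Cd163 (-0.28), Mrc1 (-0.0031) and Lyve1 (-0.37) in the second, and Adgre1 (0.02), Aif1 (-0.08) and Cd14 (-0.08) in the last. Of the 45 pairs 37 had an r above 0 without the 2 farthest samples, and these were not all among the 39 with all samples. Cd163 and Aif1 went from 0.284 to -0.190, and Cd163 and Adgre1 from -0.145 to 0.256. The cause was not tested in other cases. Low counts limit Cd209f, Cd68 and Aif1.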
